A study of Mus musculus with 65 samples.

Results

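Tuba1a, Tuba1b, Tubb3, Tubb2a, Tubb2b and Tubb5 are the 6 alpha- and beta-tubulin genes described here. They were taken by name from a table of read counts for 11971 genes, in which all 6 were measured. Of 16 listed mouse alpha- and beta-tubulin genes 12 were measured, and the 6 members held 96.5% of the reads of those 12. The members were named with earlier results on these cells known, among them levels of Tuba1a, Tuba1b and Tubb3. Their differences between cells are therefore given as a description, with no test.

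The study sequenced 65 single cells from E13.5 mouse cortex, strain C57BL/6J, to examine transcriptional heterogeneity among neural progenitors. The ganglionic eminences, which give rise to interneurons, had been taken away, the tissue of all embryos went into 1 pool, and live cells, negative for propidium iodide, were sorted 1 at a time for full-length cDNA (SMARTer kit) and Illumina sequencing. The labels give no treatment or genotype and place every cell in 1 group, called neural progenitor cells. The titles number 3 sets of 31, 13 and 21 cells without saying what the sets are, and no animal is named, so values below carry the spread across cells, and no p-value was made from cells.

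Microtubules are hollow filaments of alpha- and beta-tubulin heterodimers, and mammals encode each subunit in several genes whose proteins, the isotypes, differ mainly in their acidic C-terminal tails. Dividing cells need tubulin for the mitotic spindle, and postmitotic neurons need it for the axon, the dendrites and the leading process of migration. Tuba1a is the major alpha-tubulin gene of newborn neurons and Tuba1b is an alpha-tubulin gene used widely, also by cycling cells. Tubb3 is the beta-tubulin gene used as a neuronal marker, Tubb2a and Tubb2b are brain-enriched beta-tubulin genes, and Tubb5 is a beta-tubulin gene of progenitors and neurons alike. Variants in TUBA1A, TUBB2B, TUBB3 and TUBB (the human Tubb5) are known causes of cortical malformation in people.

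The ends of the beta-tubulin coding sequences are shown because the C-terminal tail is where isotypes differ. They were read from the coding transcripts of the reference annotation (GENCODE M21, GRCm38), 5′ to 3′, without the stop codon. The stretch starts at codon 421, and capitals mark positions that are not the same in all 4 genes.
Tubb3: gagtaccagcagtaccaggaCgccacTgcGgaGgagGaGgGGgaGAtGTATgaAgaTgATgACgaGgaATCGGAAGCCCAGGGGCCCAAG
Tubb2a: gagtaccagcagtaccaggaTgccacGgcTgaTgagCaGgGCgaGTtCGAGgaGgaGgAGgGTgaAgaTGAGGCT
Tubb2b: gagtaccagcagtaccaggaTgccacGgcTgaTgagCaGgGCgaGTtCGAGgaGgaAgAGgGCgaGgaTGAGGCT
Tubb5: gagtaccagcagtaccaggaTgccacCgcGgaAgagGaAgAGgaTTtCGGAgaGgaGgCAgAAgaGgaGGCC
Tuba1a and Tuba1b differed over the whole coding sequence at 23 of 1353 bases (98.3% identity). Tubb2a and Tubb2b differed at 47 of 1335 bases (96.5% identity). Tubb3 was 82.1% identical to Tubb5 and had the longest tail, with 450 codons against 444 in Tubb5 and 445 in Tubb2a and Tubb2b. The first 4 codons are the stretch through which the emerging protein controls the stability of its own mRNA: they read atgagggagatc in Tubb3 and atgagggaaatc in Tubb5.

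These identities bear on how far reads can be assigned. Of the 50-base windows of its transcript, Tuba1a shared 75.5% with a transcript of another gene and Tuba1b shared 83.1%. Tubb2a shared 49.6% and Tubb2b 39.3%, whereas Tubb5 shared 0.115% and Tubb3 shared 0. Nothing in the sources used here tells how the counting treated reads that match several genes, so the split of reads within the alpha pair and within the Tubb2 pair is uncertain, and that between Tubb3, Tubb5 and the others is far less so. Strand was not kept.

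Promoters are shown for Tuba1a and Tubb3, higher in cells with neuron markers, and for Tuba1b, lower in them. That of Tubb4b is added, which like Tuba1c had higher levels in cells with many G2/M markers. They were taken from RefSeq (GRCm38.p6), which matched 5 of the 6 members (not Tubb2b), as 300 bases around the annotated start, 5′ to 3′ on the gene's strand. Capitals mark matches on either strand to CCAAT (the CCAAT box), TATAAA (the TATA box) or TTTGAA (a form of the CHR element of cell cycle genes).
Tuba1a promoter, chr15:98953452-98953751, minus strand: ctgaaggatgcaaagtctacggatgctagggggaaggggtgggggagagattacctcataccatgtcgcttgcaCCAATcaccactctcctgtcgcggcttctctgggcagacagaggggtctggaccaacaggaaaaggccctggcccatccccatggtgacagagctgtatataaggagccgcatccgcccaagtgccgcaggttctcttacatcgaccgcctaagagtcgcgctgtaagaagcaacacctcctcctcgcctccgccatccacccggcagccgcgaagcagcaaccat
Tuba1b promoter, chr15:98934341-98934640, minus strand: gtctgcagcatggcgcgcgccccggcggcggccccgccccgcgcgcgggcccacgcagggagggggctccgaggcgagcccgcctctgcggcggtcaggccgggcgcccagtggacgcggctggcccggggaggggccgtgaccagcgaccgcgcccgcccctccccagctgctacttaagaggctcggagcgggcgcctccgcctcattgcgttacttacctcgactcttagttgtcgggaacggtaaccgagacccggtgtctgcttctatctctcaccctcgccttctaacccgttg
Tubb3 promoter, chr8:123411303-123411602, plus strand: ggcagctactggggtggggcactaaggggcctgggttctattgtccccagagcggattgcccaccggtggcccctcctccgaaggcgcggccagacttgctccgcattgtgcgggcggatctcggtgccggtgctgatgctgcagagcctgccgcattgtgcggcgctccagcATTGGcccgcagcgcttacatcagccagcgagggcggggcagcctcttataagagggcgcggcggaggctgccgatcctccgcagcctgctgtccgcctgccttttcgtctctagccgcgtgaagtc
Tubb4b promoter, chr2:25224653-25224952, minus strand: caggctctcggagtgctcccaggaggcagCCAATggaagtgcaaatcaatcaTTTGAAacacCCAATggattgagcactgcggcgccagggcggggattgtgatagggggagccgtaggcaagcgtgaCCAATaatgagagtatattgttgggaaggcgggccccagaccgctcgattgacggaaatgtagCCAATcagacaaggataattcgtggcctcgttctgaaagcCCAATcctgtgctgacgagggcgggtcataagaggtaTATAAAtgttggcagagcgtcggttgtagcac
The Tubb4b window held 5 CCAAT matches, 1 TATAAA match and 1 TTTGAA match. Tuba1a and Tubb3 held 1 CCAAT match each, Tubb5 held 2, and Tuba1b held none of the 3 motifs. Tuba1c, whose window is not shown, held 1 CCAAT match and neither TATAAA nor TTTGAA. Among all 32851 RefSeq promoter windows of this length, 37.4% held CCAAT, 13.6% held TATAAA and 17.9% held TTTGAA, so that single matches are common, and a match describes letters only. The alpha genes Tuba1b, Tuba1a and Tuba1c are neighbours on chromosome 15, and Tubb2a and Tubb2b are neighbours on chromosome 13.

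Cells held 85338 to 32130629 gene reads, with a median of 14609426, and 3 cells held fewer than 1000000. Tubulin reads numbered 417 to 575050 per cell, with a median of 120609, and made up 1.09% of a cell's reads on average. Reads carry no molecular identifiers, so binomial intervals below cover counting error only. No 2 cells held identical counts.

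Cells were put in classes from markers that hold no tubulin. A gene was counted as on in a cell at 10 counts per 1000000 reads (CPM) or more. G2/M-high cells had at least 50% of 24 markers of the G2 and M phases on. For the other cells, d is the fraction of 20 neuron markers on minus the fraction of 20 apical progenitor markers on, with neuron-like cells at 0.2 or more, progenitor-like cells at -0.2 or less, and the rest unclassed. This gave 27 neuron-like, 16 G2/M-high, 9 unclassed and 13 progenitor-like cells. The G2/M-high cells were not divided by d, which ran from -0.7 to 0.3 among them. The classes are ranges of a score: 9 neuron-like and 5 progenitor-like cells lay within 2 markers of their bound, and 5 G2/M-high cells within 3 markers of theirs.

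The markers went against the common label for many cells. Dcx, a microtubule-binding protein of young neurons, was on in 26 of 27 neuron-like cells, 3 of 16 G2/M-high cells and 0 of 13 progenitor-like cells. Sox2, a transcription factor of neural progenitors, was on in 0 of 27 neuron-like cells, 11 of 16 G2/M-high cells and 7 of 13 progenitor-like cells. Other genes of progenitors were less clear-cut in neuron-like cells: Vim, an intermediate filament gene of radial glia, was on in 23 of 27 (median 476 CPM), Pax6 in 7 and Eomes, of intermediate progenitors, in 11. Sox2, Vim and Pax6 are among the progenitor markers that enter d, so their counts in neuron-like and progenitor-like cells are partly set by the classing. Dcx and Eomes do not enter d. Neuron markers thus stood in cells that the labels call neural progenitors. Of the 27 neuron-like cells, 13 had Neurod6, a gene of excitatory cortical neurons, on, 6 had 3 or more interneuron genes on, and 8 had neither. Of 16 G1/S markers and 24 G2/M markers, medians of 3 and 2 were on in neuron-like cells, 11 and 17 in G2/M-high cells, and 10 and 5 in progenitor-like cells, which were thus not free of cycling genes. The 24 G2/M markers are those that define the G2/M-high class.

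Genes of other cell types were looked at in the same way. Endothelial markers were not measured, and microglial markers summed to at most 93.7 CPM in any cell. Of 6 mural and meningeal genes, 5 were on in 1 unclassed cell and 6 in 1 progenitor-like cell, where they summed to 11962 and 19800 CPM, and 2 neuron-like cells had 3 or more Cajal-Retzius genes on. Without these 4 cells each class difference of the 6 members kept its direction. Erythroid genes were widespread: the haemoglobin gene Hbb-y was on in 20 of 27 neuron-like, 8 of 16 G2/M-high, 6 of 9 unclassed and 10 of 13 progenitor-like cells. Summed, 6 erythroid genes followed the title sets, with median sums of 0.885 CPM in set 1, 609 in set 2 and 736 in set 3. Their part in the results was not tested.

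Tubulin as a whole was higher in neuron-like cells. Summed over the 12 genes, the tubulin level averaged 16183 ± 6375 CPM in neuron-like cells, 8273 ± 3710 CPM in G2/M-high cells and 5383 ± 2982 CPM in progenitor-like cells (SD across cells, n = 27, 16 and 13). As a difference of mean log2(CPM + 1) from progenitor-like cells this was 1.63 for neuron-like and 0.68 for G2/M-high cells. The ranges overlapped, with 2655 to 28335 CPM, 2454 to 15884 CPM and 1077 to 13286 CPM in the 3 classes. Because CPM is a share of a cell's reads, more tubulin mRNA and less of other mRNA cannot be told apart.

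Not all members took part in this. Of the 6 members, 4 were higher in neuron-like than in progenitor-like cells by at least 1 on the log2(CPM + 1) scale (Tuba1a, Tubb3, Tubb2a and Tubb2b), where 18.9% of 8377 genes with a mean of 10 CPM or more were higher by as much. Tuba1b alone was lower by at least 1, as were 21.8% of those genes, and Tubb5 was 0.93 higher and thus short of that size. The median difference was 2.52 over the 6 members and -0.04 over the 8377 genes. The members were chosen with such differences known, so these counts describe them and support nothing further.

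**Figure D1:**
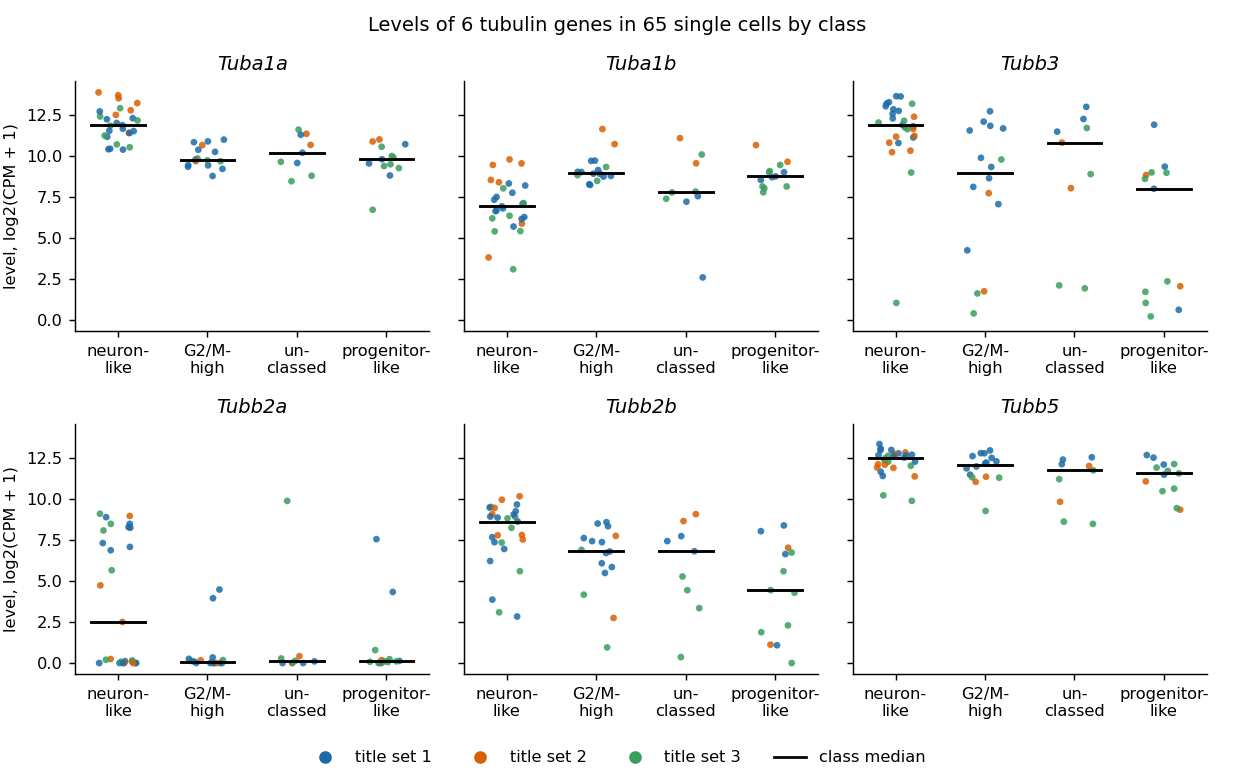
Level of each of the 6 tubulin genes as log2(CPM + 1) (y axis) in each of 65 cells by class (x axis). Points are cells coloured by title set, with a small random sideways shift, and black bars are class medians; Tuba1a and Tuba1b move in opposite directions, with medians of 3695 and 119 CPM in neuron-like cells against 876 and 424 CPM in progenitor-like cells.

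Tuba1a ranged from 1316 to 14724 CPM in neuron-like cells (median 3695), from 432 to 2006 CPM in G2/M-high cells (median 849) and from 103 to 2018 CPM in progenitor-like cells (median 876). Of the 27 neuron-like cells, 22 lay above every progenitor-like cell, whereas no G2/M-high cell did. The mean log2 difference from progenitor-like cells was 2.24 for neuron-like and 0.23 for G2/M-high cells. Within title sets 1, 2 and 3 the neuron-like difference was 1.79, 2.06 and 2.35.

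Tuba1b did the reverse. It ranged from 7.44 to 870 CPM in neuron-like cells (median 119), from 295 to 3138 CPM in G2/M-high cells (median 493) and from 216 to 1593 CPM in progenitor-like cells (median 424). In 19 of 27 neuron-like cells it lay below every progenitor-like cell. The mean log2 difference was -1.86 for neuron-like cells, and -1.72, -2.24 and -2.57 within the title sets. G2/M-high cells differed from progenitor-like cells by 0.38, less than the spread across cells.

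The 2 alpha genes, whose coding sequences are nearly the same, were set against each other within each cell. Tuba1a made up 95.3 ± 3.9% of Tuba1a plus Tuba1b reads in neuron-like cells, 61.1 ± 15.8% in G2/M-high cells, 74.6 ± 21.7% in unclassed cells and 63.2 ± 16.5% in progenitor-like cells. Neuron-like cells ranged from 86.8 to 99.9%, above the 32.8 to 81.6% of G2/M-high cells and the 27.1 to 84.3% of progenitor-like cells, with no overlap for any of the 27. In 18 of them Tuba1a held at least 95%, and in none did it hold less than 50%, as it did in 4 G2/M-high and 3 progenitor-like cells. Unclassed cells spanned 42.4 to 99.3%.

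The balance lay close together across the title sets in neuron-like cells, with 94.7%, 93.9% and 97.6% in sets 1, 2 and 3, or in progenitor-like cells, with 65.2%, 62.9% and 62.1%. G2/M-high cells had 65.3%, 33.2% and 64.5%, the second from 2 cells. The error of counting reads was small beside these gaps. The cell with the fewest pair reads had 282 of them and an exact 95% interval of 72.3 to 82.4%. The median width of the interval over cells was 0.868 percentage points. Reads carry no molecular identifiers, so these intervals do not cover error from the sampling of molecules. Over the 65 cells the balance had a Spearman rho of 0.78 with d and of -0.68 with the number of G2/M markers on. Within the sets the rho with d was 0.80, 0.86 and 0.66. These correlations describe cells that share library depth: the balance had a rho of -0.24 with the total reads of a cell, and d one of -0.31. How reads that match both genes were split was not tested.

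**Figure D2:**
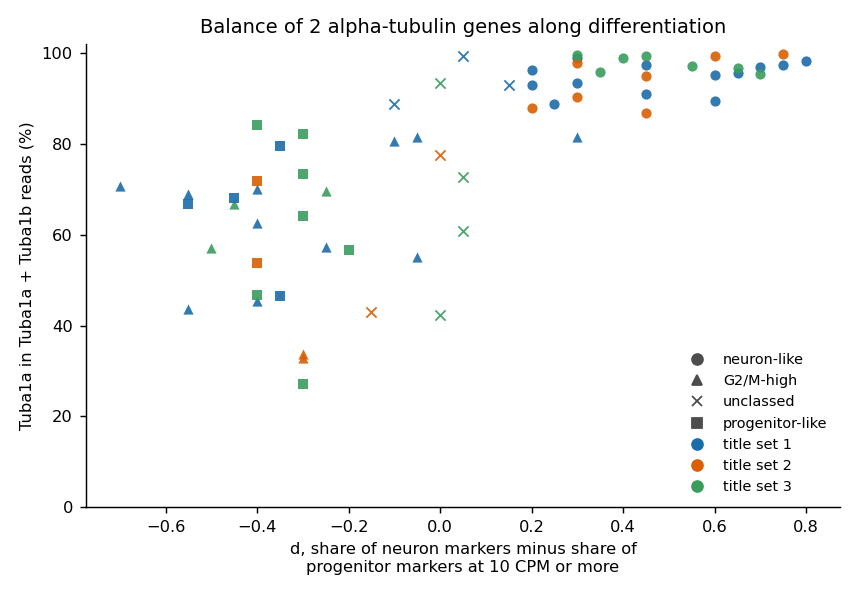
Tuba1a as a percentage of Tuba1a plus Tuba1b reads (y axis) against d, the fraction of neuron markers on minus that of apical progenitor markers on (x axis), 1 symbol per cell. Symbol shapes are classes and colours are title sets; the 27 neuron-like cells at the right lie between 86.8 and 99.9%, above all G2/M-high and progenitor-like cells.

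Among the beta genes, Tubb3 showed the widest span. It ranged from 1.04 to 12534 CPM in neuron-like cells (median 3728), from 0.31 to 6637 CPM in G2/M-high cells (median 513) and from 0.16 to 3766 CPM in progenitor-like cells (median 251). It was on in 26 of 27, 13 of 16 and 7 of 13 cells of these classes, so that it was not limited to neuron-like cells. The highest G2/M-high values were 6637, 4285, 3592 and 3222 CPM, in cells 26, 10, 33 and 4 of set 1. These cells had the highest d of that class, at -0.05, -0.05, 0.3 and -0.1. The next value was 2952 CPM, in a cell with d of -0.4. Above every progenitor-like cell lay 13 neuron-like cells. The highest progenitor-like value came from cell 1 of set 1, which had 8 of 11 interneuron genes on, and the next was 641 CPM. Cell 1 of set 1 also held the progenitor-like maxima of summed tubulin, Tubb5 and Tubb2a. The mean log2 difference of neuron-like from progenitor-like cells was 5.93, and 5.05, 5.66 and 5.54 within the title sets. The 1 neuron-like cell with Tubb3 at 1.04 CPM, cell 41 of set 3, had 9 of 20 neuron markers on and carried Tuba1a at 1453 CPM and Tubb5 at 1185 CPM.

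Tubb2b, mutated in human cortical malformation, ranged from 6.12 to 1138 CPM in neuron-like cells (median 391), from 0.93 to 381 CPM in G2/M-high cells (median 114) and from 0 to 332 CPM in progenitor-like cells (median 20.7). The classes overlapped, and 14 of 27 neuron-like cells lay above every progenitor-like cell. Its mean log2 difference was 3.43 for neuron-like cells, and 1.56, 4.74 and 3.75 within the sets.

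Tubb2a was sparse. It reached 10 CPM in 13 of 27 neuron-like cells, 2 of 16 G2/M-high cells and 2 of 13 progenitor-like cells. Its levels ran from 0 to 544 CPM (median 4.66), from 0 to 21.2 CPM (median 0.05) and from 0 to 185 CPM (median 0.07) in these classes, so most cells had it near 0 and a minority high. The mean log2 difference was 2.79 for neuron-like cells and -0.44 for G2/M-high cells, both smaller than the spread across cells (pooled SD 3.49 and 1.85).

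Tubb5 was high in every cell of the 3 classes, with 937 to 10310 CPM in neuron-like cells (median 5715), 611 to 7879 CPM in G2/M-high cells (median 4267) and 646 to 6472 CPM in progenitor-like cells (median 2991). The ranges overlapped throughout. Neuron-like cells were 0.93 and G2/M-high cells 0.56 above progenitor-like cells on the log2 scale, and within the sets the neuron-like difference was 0.39, 1.93 and 0.58.

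**Figure D3:**
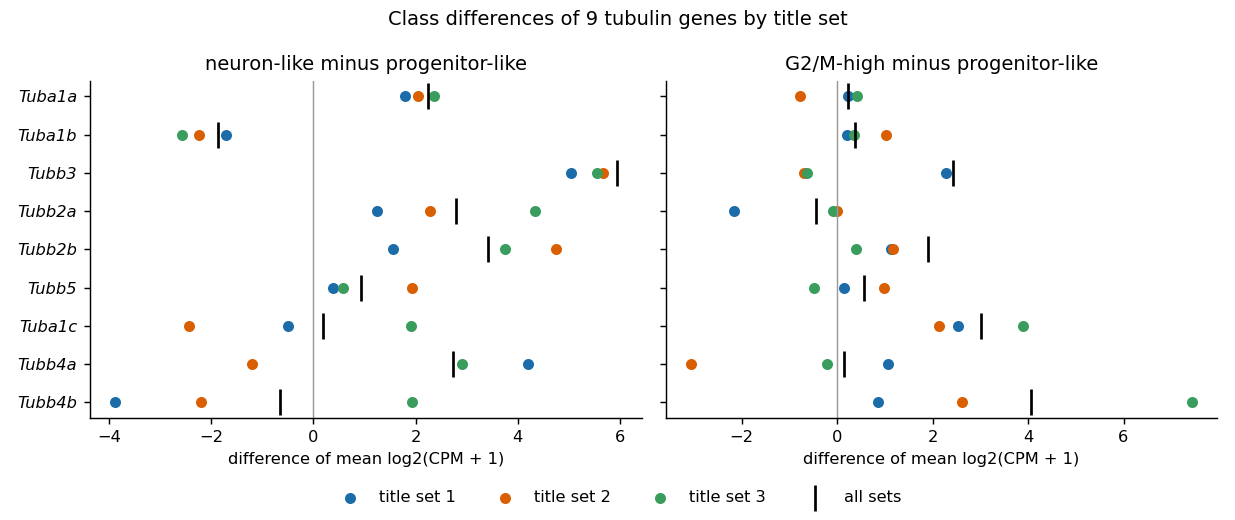
Difference of mean log2(CPM + 1) (x axis) of neuron-like minus progenitor-like cells (left) and G2/M-high minus progenitor-like cells (right) for 9 tubulin genes. Dots are the 3 title sets and black bars all cells; the neuron-like difference has 1 sign in every set for each of the 6 members, while Tubb3 in G2/M-high cells is 2.27, -0.70 and -0.62 in the sets against 2.43 over all cells.

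Of the 6 members, 2 were higher in G2/M-high than in progenitor-like cells by at least 1, as were 25.4% of 8377 genes, and 0 of 6 were lower by as much, as were 9.45% of the genes. The median difference was 0.47 over the members and 0.30 over all these genes. The 2 were Tubb3, at 2.43, and Tubb2b, at 1.90. Both differences were smaller than the spread across cells (pooled SD 4.10 and 2.49). Tubb3 differed by 2.27 in set 1, which gave 11 of the 16 G2/M-high cells, and by -0.70 and -0.62 in sets 2 and 3, and without set 1 by -0.50. Tubb2b differed by 1.12, 1.17 and 0.40.

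The tubulins that stood out in G2/M-high cells were others of the family. Tubb4b, a widely used beta-tubulin gene, had a median of 392 CPM in G2/M-high cells, where it was on in 15 of 16, against 24.6 CPM in progenitor-like cells (7 of 13). Its mean log2 difference was 4.07, and 0.86, 2.61 and 7.44 within the sets. Tuba1c, the third gene of the alpha cluster, had a median of 65.7 CPM in G2/M-high cells (12 of 16 on) against 0.59 CPM in progenitor-like cells (4 of 13), with a difference of 3.01, and 2.53, 2.13 and 3.89 within the sets. Tuba1c shared 60.99% and Tubb4b 55.5% of their 50-base windows with other genes, so these values carry the same doubt as those of the alpha pair. In neuron-like cells Tuba1c and Tubb4b were near 0 in most cells, with medians of 2.54 and 0.76 CPM.

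Tubb4a, a beta-tubulin gene of mature neurons and oligodendrocytes, was on in 9 of 27 neuron-like cells, 2 of 16 G2/M-high cells and 1 of 13 progenitor-like cells. Its neuron-like difference was 2.72, and 4.19, -1.19 and 2.91 within the sets. Tuba4a and Tubal3 were on in 1 cell each and Tubb6 in 3.

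Isotype shares give the same data as parts of a cell's tubulin reads. Tubb5 held 34.9 ± 10.9% in neuron-like cells, 51.8 ± 14.99% in G2/M-high cells and 57.6 ± 17.4% in progenitor-like cells. Tubb3 held 27.8 ± 14.4%, 13.3 ± 14.6% and 6.39 ± 8.53% in these classes. Tuba1a held 30.6 ± 16.2%, 14.5 ± 7.2% and 20.9 ± 13.53%. Neuron-like cells thus had shares spread over 3 genes, while Tubb5 alone held most of the tubulin reads of many progenitor-like and G2/M-high cells.

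The other members held less. Tuba1b held 1.40 ± 1.46% in neuron-like cells, 10.7 ± 10.2% in G2/M-high cells and 11.98 ± 8.02% in progenitor-like cells. Tubb2b held 2.39%, 1.72% and 1.15%, and Tubb2a 0.74%, 0.03% and 0.15%. Tubb4b, outside the 6, held 0.81%, 6.58% and 1.55%, and in 1 G2/M-high cell 27.8%. Its share in G2/M-high cells was 5.03 points above that in progenitor-like cells, less than the pooled SD of 5.20. Within sets 1, 2 and 3, with 11, 2 and 3 G2/M-high cells, that difference was 0.15, 4.46 and 16.3 points. Between neuron-like and progenitor-like cells the shares of the 2 alpha members differed in opposite directions, for Tuba1a by less than the spread across cells. In G2/M-high cells both shares were lower than in progenitor-like cells, by less than that spread. The sum of all alpha genes also differed by less than the spread across cells. All alpha-tubulin together held 32.4 ± 16.97%, 26.5 ± 15.1% and 33.1 ± 18.6% of tubulin reads.

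Counted by the leading gene of each cell, Tubb5 held the largest share in 42 of 65 cells. It led in 11 of 27 neuron-like cells (40.7%), 14 of 16 G2/M-high cells (87.5%) and 12 of 13 progenitor-like cells (92.3%). Tubb3 led in 9 neuron-like and 2 unclassed cells and in no cell of the other 2 classes. Tuba1a led in 7 neuron-like cells and in 4 others, and Tuba1b in 1 G2/M-high cell.

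**Figure D4:**
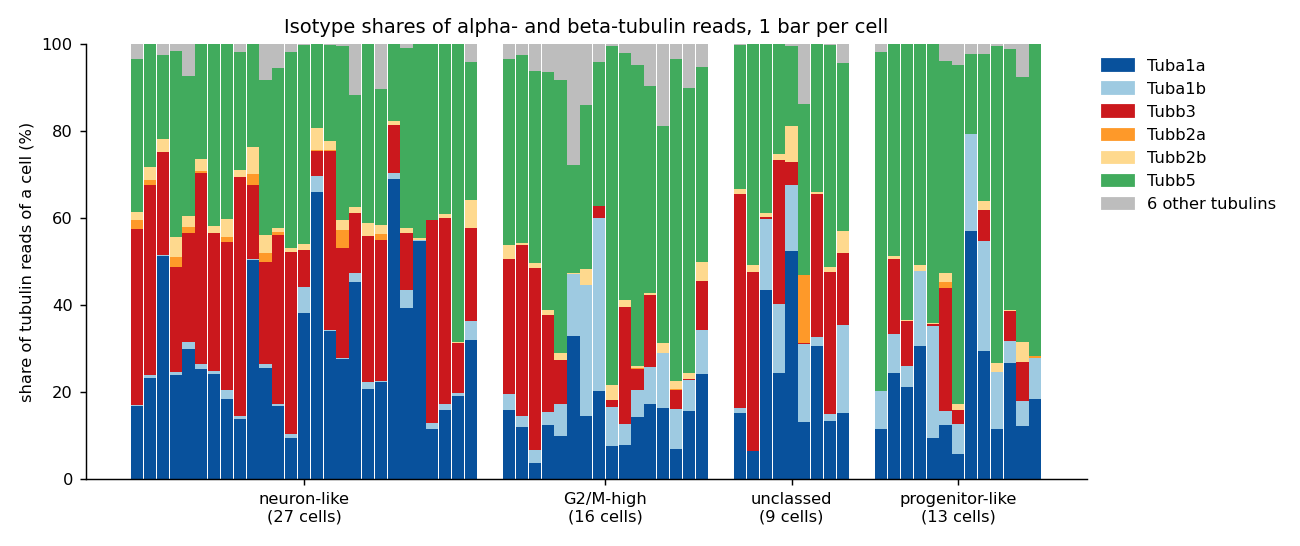
Share of each tubulin gene in the alpha- and beta-tubulin reads of a cell (y axis, percent), 1 bar per cell, grouped by class and ordered within a class from high to low d. Colours are genes, grey is the sum of the 6 other measured tubulin genes; Tubb5 leads in 12 of 13 progenitor-like and 14 of 16 G2/M-high cells and in 11 of 27 neuron-like cells.

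Longer transcripts give more reads in full-length data, so levels were compared between genes per kilobase. The transcripts were taken as 1803 bases for Tuba1a, 1743 for Tuba1b, 1868 for Tubb3, 1610 for Tubb2a, 2182 for Tubb2b and 2649 for Tubb5. In neuron-like cells, Tuba1a had a mean share of 34.6%, Tubb3 30.7% and Tubb5 27.5% per length, an order in which neighbours differed by less than the spread across cells. In G2/M-high cells, the per-length order was Tubb5 at 42.9%, Tuba1a at 17.05%, Tubb3 at 15.3% and Tuba1b at 12.9%. In progenitor-like cells it was Tubb5 at 48.95%, Tuba1a at 24.8%, Tuba1b at 14.9% and Tubb3 at 7.46%. The per-length level of Tubb5 had medians of 2158, 1611 and 1129 reads per kilobase and 1000000 reads in neuron-like, G2/M-high and progenitor-like cells, and that of Tuba1a medians of 2049, 471 and 486.

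Shares also differed between title sets within a class. In neuron-like cells of sets 1, 2 and 3, Tuba1a held 18.3%, 49.5% and 34.5%, and Tubb3 37.6%, 14.3% and 22.9%. The class difference in the Tuba1a share, 9.71 percentage points over all cells and less than its spread, was 5.99, 6.27 and 15.1 points within the sets. For Tubb3 it was 21.4 points over all cells and 27.4, 10.7 and 17.9 within the sets, and for Tuba1b -10.6 points over all cells and -5.31, -20.9 and -11.1. For Tubb5 it was -22.7 points over all cells and -26.2, 2.30 and -27.9 within the sets, where set 2 holds 2 progenitor-like cells. What the sets stand for is not given, and their part in these differences was not tested.

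The members varied together in part. Over the 65 cells the level of Tuba1a had a Spearman rho of 0.61 with Tubb3 and 0.64 with Tubb2b, and Tubb3 one of 0.68 with Tubb5. Tuba1a and Tuba1b had a rho of -0.30, and of -0.55, -0.87 and -0.54 within the sets. With d, the rho was 0.71 for Tuba1a, 0.68 for Tubb3, 0.54 for Tubb2b, 0.39 for Tubb5, 0.28 for Tubb2a and -0.61 for Tuba1b. All these values share the total of each cell.

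Among 8377 genes, those whose levels were most like Tuba1a over the 65 cells were Gm6682, with a rho of 0.81, Dcx (0.71), Tmsb10 (0.70), Stmn2 (0.70) and Rtn1 (0.65). Gm6682 shares 50-base windows with the transcripts of Tuba1a and Tuba1b, and its reads came to 1.24% of those of Tuba1a. Stmn2 encodes a tubulin-binding protein of growth cones, and Rtn1 was among the neuron markers. The 5 most like Tuba1b were Pola2 (0.62) and Rrm1 (0.60), which serve DNA replication, the proliferation marker Mki67 (0.60), 2700094K13Rik (0.56) and Exosc2 (0.56). The 5 most like Tubb3 were Sox11 (0.82), a transcription factor of immature neurons, Map1b (0.77), a microtubule-associated protein, Actb (0.76), Dpysl3 (0.73) and Mllt11 (0.72). Mllt11, Rrm1 and Mki67 are themselves markers used above.

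Genes that make and modify tubulin are given beside all 8377 genes, of which 18.9% were higher and 21.8% lower by at least 1 in neuron-like cells (median -0.04), and 25.4% higher and 9.45% lower in G2/M-high cells (median 0.30). Gamma-tubulin and its ring complex are the template from which microtubules grow. The list of their genes, which also holds another tubulin, Tube1, had 9 genes with a mean of 10 CPM or more. In neuron-like cells 1 was higher and 1 lower by at least 1, with a median of -0.23, and in G2/M-high cells 3 were higher and 0 lower, with a median of 0.92, so that the count higher was close to that of all genes. The 3 were Nedd1, which brings the ring complex to centrosome and spindle (2.24, and 1.28, 4.01 and 3.96 within the sets), Tubg1, a gamma-tubulin (1.40, but -1.27 in set 1), and Tubgcp3 (1.10, and 1.42, 0 and 1.72 within the sets). In neuron-like cells Nedd1 was at -1.11, but 0.80 in set 2, and Tubgcp5 at 1.08 (0.57, 2.31 and 0.31). These genes were off in many cells. Nedd1, Tubg1 and Tubgcp3 were on in 9, 8 and 4 of 16 G2/M-high cells and in 3, 4 and 1 of 13 progenitor-like cells. Nedd1 and Tubgcp5 were on in 2 and 4 of 27 neuron-like cells, and Tubgcp5 in 0 progenitor-like cells.

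The folding list, made of the prefoldin, CCT chaperonin and tubulin cofactor genes that assemble the heterodimer, had 20 such genes. In neuron-like cells 1 was higher and 3 lower, with a median of -0.33: Pfdn2 stood at 1.29 and Pfdn1, H2-Ke2 (a prefoldin subunit) and Arl2 at -1.20, -1.12 and -1.10. Within sets 1, 2 and 3 only Pfdn1 of these 4 kept its sign (-0.55, -0.38 and -1.72), while Pfdn2 was at -1.75, -0.95 and 4.73, H2-Ke2 at -3.69, -0.03 and 0.61, and Arl2 at 2.15, 0.80 and -3.50. In G2/M-high cells 7 were higher and 1 lower, with a median of 0.27, near the 0.30 of all genes, led by Vbp1 (3.65), Pfdn2 (2.92), Cct8 (2.89) and Cct4 (1.91). Of these, Vbp1 (3.90, 5.02 and 2.14) and Cct8 (1.89, 5.42 and 2.82) kept their sign in the 3 sets, whereas Pfdn2 was at -1.70 in set 2 and Cct4 at -0.84 in set 1.

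Of 12 tubulin-modifying genes, 5 were higher and 1 lower in neuron-like cells, with a median of 0.46. Atat1, the alpha-tubulin acetyltransferase, was on in 19 of 27 neuron-like cells against 6 of 13 progenitor-like cells and 2.35 higher (2.10, -0.54 and 1.83 within the sets). Agtpbp1, a deglutamylase, was 1.78 higher (1.28, 1.92 and 2.04). Vash2, a detyrosinating enzyme, and Ttll1, of a polyglutamylase, were 1.27 and 1.24 higher with a change of sign between sets. Most neuron-like cells had these genes near 0: Agtpbp1, Vash2 and Ttll1 were on in 8, 6 and 8 of 27. In progenitor-like cells they were on in 0, 2 and 2 of 13. In G2/M-high cells 4 were higher and 0 lower, with a median of 0.31, near that of all genes, namely the deacetylase Hdac6 (2.89), Ttll4 (2.18), Ttll12 (1.80) and Ccdc23 (1.01), now called Svbp, the partner of the vasohibins. Hdac6 (2.73, 4.11 and 0.55) and Ttll4 (1.38, 2.69 and 0.03) kept their sign in the 3 sets, though Ttll4 was near 0 in set 3. Ttll12 was at -0.21, 0.16 and 2.90, and Ccdc23 at 1.49, -1.48 and -0.20. Hdac6, Ttll4, Ttll12 and Ccdc23 were on in 8, 8, 7 and 9 of 16 G2/M-high cells. In progenitor-like cells they were on in 2, 2, 2 and 4 of 13. Ttc5, the factor that reads the first residues of emerging tubulin and triggers decay of its mRNA, differed by -0.11 in neuron-like and -1.33 in G2/M-high cells, with both signs among the sets.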

How the data were processed

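The authors deposited unnormalized counts of reads, as whole numbers, of 11971 genes in each of 65 cells. TopHat2, HTSeq and mm9 appear, without roles, per the submitters' processing notes; the sources used here name no annotation. Counts were divided by the total of the cell to give CPM, and logs were taken after adding a pseudocount of 1. Cells were classed from fixed marker lists, which hold no tubulin. Because embryos were pooled and cells are not replicates, class differences are descriptions. A difference of at least 1 in mean log2(CPM + 1) was counted, over genes with a mean of 10 CPM or more.

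The members and lists were chosen with earlier results of these data known. Named genes are the members, the other measured tubulins, for Tuba1a, Tuba1b and Tubb3 the 5 genes with the highest rho among those above 0 in each title set, up to 4 genes per pathway list and comparison that passed that size, and class markers. Ttc5 has a list of its own. Cell 41 of set 3 and the cells with genes of other cell types were singled out after their values were seen.

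Coding sequences, lengths and shared windows came from GENCODE M21 and promoters from RefSeq GRCm38.p6, builds other than mm9; no position was converted. The ends of the alpha-tubulin coding sequences are not reported here. The class comparison was tested on simulated counts only for planted changes larger than the difference of 1 used here. The recovery of changes of that size was not tested. Python 3.11.15 with pandas 2.3.3 and scipy 1.17.1 was used, and scran 1.30.0 in R 4.3.3 for size factors as an alternative. Doublets were not called. Cells were sorted singly, and whether any doublets remained was not tested.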

Additional observations from a re-analysis of the deposited data

How the results depend on the processing

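29 results on the 6 members were recomputed under 21 alternatives, of which 3 were chosen after seeing the data (reads per number of unshared windows, G2/M-high cells put in the class of their d, and no cells with mural, meningeal or Cajal-Retzius genes). Followed further were 13 results, namely those past their bound and the rho of the balance with d, which had no bound. A level passed at a difference of at least 1, and a share or the balance at one above its pooled SD. Of these 13 results, 12 kept their direction in every alternative that could be computed for them. The exception was the Tubb3 level of G2/M-high minus progenitor-like cells, 2.43 on the log2 scale, which was -0.50 without title set 1. With reads per number of unshared windows, the Tuba1b share of neuron-like minus progenitor-like cells moved to -28.3 percentage points from -10.6, and the Tubb5 share to -7.70 from -22.7, a setting that by construction gives more weight to genes with few windows of their own. The balance of Tuba1a in the alpha pair, 32.1 points between neuron-like and progenitor-like cells, was recomputed in 14 of the alternatives. It ranged from 27.5 to 34.7, also when cells were thinned to the 85338 reads of the shallowest. None of the 14 changed how reads were split within the pair, so this range does not cover misassigned reads. The Tuba1a share difference, 9.71 points and within its spread, ranged from 0.05 to 22.5.

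The share of all genes past a difference of 1 depended on the pseudocount and the sets. With a pseudocount of 10 it was 8.28% higher and 10.4% lower for neuron-like cells, and 10.3% higher and 3.19% lower for G2/M-high cells. The share lower was 33.5% for neuron-like cells without set 3, and for G2/M-high cells 19.3% without set 1 and 21.2% without set 3. No paired analysis was possible because all cells form 1 group and their numbers pair nothing. The limits are 1 pool of embryos, 13 progenitor-like cells of which 2 are in set 2, classes cut from a score, unexplained title sets, and paralog reads that may be misassigned.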

Other observations

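Neuron-like cells were also split by the kind of neuron their markers pointed to. The 13 cells with Neurod6 on gave Tubb3 35.7 ± 11.2% of their tubulin reads, the 6 cells with 3 or more interneuron genes on 23.8 ± 14.6%, and the 8 cells with neither 17.8 ± 12.8% (SD across cells). Tuba1a held 27.2 ± 16.4%, 29.8 ± 19.1% and 36.7 ± 13.7%, so that the ranges overlapped for both genes. The title sets were unequal among these cells, with 8 of the 13 Neurod6 cells, 3 of the 6 and 2 of the 8 from set 1, where the Tubb3 share averaged 41.4%, 30.2% and 33.5% in the 3 kinds. The balance of the alpha pair differed by less than the spread across cells, with 95.9%, 94.3% and 94.8% Tuba1a.

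The 9 unclassed cells, between the bounds of d, had Tuba1a at 346 to 3059 CPM (median 1153), Tuba1b at 4.99 to 2136 CPM (median 216) and Tubb3 at 2.78 to 7988 CPM (median 1767). In 3 of them Tuba1a held at least 90% of the pair and the lowest held 42.4%.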
